A study of Mus musculus with 6 samples.

Results

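Mitochondrial ribosomal proteins were followed in mouse peritoneal macrophages through inflammasome activation and muscone treatment. The members were all protein coding genes whose symbol is Mrpl or Mrps followed by a number and at most 1 letter, which gave 78 of 54532 genes (49 Mrpl and 29 Mrps). Poly-A RNA was sequenced from wild-type (WT) macrophages of male C57BL/6J mice of 6 to 8 weeks, drawn from the peritoneal cavity after thioglycolate injection. Control cells received no treatment. Model cells received 500 ng/mL lipopolysaccharide (LPS) for 5.5 h and then 2 mM ATP for 0.5 h. MUS cells were given, besides LPS and ATP at these doses, 50 µM muscone, a macrocyclic ketone of musk, 5 h after LPS and 0.5 h before ATP. Each group had 2 libraries, and nothing in the labels says that these came from separate animals or cultures, so the p-values measure only the spread between these libraries.

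Mitochondria carry their own ribosome, the mitoribosome, which translates the few membrane proteins encoded by mitochondrial DNA into the respiratory chain and ATP synthase. Its RNAs come from mitochondrial DNA, whereas all its proteins are made from nuclear genes, translated in the cytosol and imported. The Mrpl genes encode proteins of the large subunit, which forms peptide bonds, and the Mrps genes mostly encode proteins of the small subunit, which reads the mRNA. Some have a counterpart in the bacterial ribosome and others exist only in mitochondria. LPS is known to turn macrophages from respiration towards glycolysis, and the study asked how muscone acts on mitochondria during activation of the NLRP3 inflammasome.

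Promoters of these genes often hold sites for ETS-family factors, NRF1 and YY1, which are known regulators of nuclear genes for mitochondria. RefSeq promoters on GRCm38.p6 were at hand for 69 of the 78 members, and the 250 bases before each start were searched on both strands. The ETS motif CCGGAAG was present in 17 members (24.6%), against 7.05% of 27025 genes with a promoter and 15.8% of the 7038 that were also expressed. The NRF1 motif (GCGC, any base, then TGCGC) was present in 10 members (14.5%), against 3.86% of all and 9.36% of expressed genes. The YY1 motif AAGATGGC was present in 4 members (5.80%), against 1.59% and 2.27%. At least 1 of the motifs was present in 29 members (42.0%), against 11.7% and 25.2%. A match describes letters in this window and is not a measured binding site.

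The promoters below belong to the members at the ends of the range in Model vs. Control, Mrpl27, Mrpl52 and Mrpl30 at the upper end and Mrps21 and Mrpl42 at the lower end. Capitals mark the motif, on either strand, and each sequence runs in the direction of its gene. The ETS motif began 55 bases before the start in Mrpl27 (chr11:94653541-94653790, plus strand) and 47 bases before it in Mrpl52 (chr14:54426659-54426908, plus strand). The NRF1 motif began 83 bases before the start in Mrpl30 (chr1:37890227-37890476, plus strand) and 91 bases before it in Mrps21 (chr3:95871515-95871764, minus strand). In Mrpl27 and Mrpl30 the motif also lies within the span of a gene on the opposite strand, Eme1 and Mitd1. The starts are those of RefSeq, and the Mrpl27 gene as listed in the data begins inside its window. The Mrpl42 window (chr10:95501950-95502199, minus strand) held none of the 3 motifs. The NRF1 motif thus stood before a gene at each end of the range.
Mrpl27: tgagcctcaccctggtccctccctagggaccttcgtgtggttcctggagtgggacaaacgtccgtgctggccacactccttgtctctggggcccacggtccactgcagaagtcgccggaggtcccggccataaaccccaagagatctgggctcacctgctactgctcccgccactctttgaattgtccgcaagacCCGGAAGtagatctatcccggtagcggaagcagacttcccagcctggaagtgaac
Mrpl52: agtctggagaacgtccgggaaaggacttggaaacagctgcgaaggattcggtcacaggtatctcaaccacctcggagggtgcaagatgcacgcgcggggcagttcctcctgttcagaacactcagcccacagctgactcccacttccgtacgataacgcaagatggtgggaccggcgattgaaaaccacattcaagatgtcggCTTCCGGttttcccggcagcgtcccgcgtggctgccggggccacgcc
Mrpl30: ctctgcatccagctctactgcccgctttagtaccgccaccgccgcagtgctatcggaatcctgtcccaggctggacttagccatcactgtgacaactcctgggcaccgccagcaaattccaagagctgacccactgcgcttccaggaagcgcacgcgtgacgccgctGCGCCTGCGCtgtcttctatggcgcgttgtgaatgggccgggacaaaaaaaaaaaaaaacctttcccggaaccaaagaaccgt
Mrps21: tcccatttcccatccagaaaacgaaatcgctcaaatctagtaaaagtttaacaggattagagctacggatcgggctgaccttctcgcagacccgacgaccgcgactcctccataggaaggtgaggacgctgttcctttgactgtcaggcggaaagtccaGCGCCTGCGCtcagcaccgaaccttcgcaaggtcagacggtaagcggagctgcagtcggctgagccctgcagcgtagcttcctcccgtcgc
Mrpl42: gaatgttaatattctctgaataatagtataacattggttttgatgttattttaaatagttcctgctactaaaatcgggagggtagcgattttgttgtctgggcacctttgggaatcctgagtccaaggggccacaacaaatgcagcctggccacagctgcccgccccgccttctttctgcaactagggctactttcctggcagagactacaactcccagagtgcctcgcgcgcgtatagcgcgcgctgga

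The libraries held between 15526321 and 17135442 fragments on genes, of which the members took 15523 to 23342. Summed over macrophage markers, expression lay between 8426 and 13340 FPKM (fragments per gene, scaled to gene length and library size) in every library. All 7 markers were above 0, and Lyz2 made up most of the sum at 7275 to 12007 FPKM. Csf1r (208 and 272 FPKM for Control, 83.4 to 105 in Model and MUS) and Cd68 were lower in every Model and MUS library than in Control. Fcgr1 (18.3 and 7.87 FPKM for Control, 134 to 161 in Model and MUS) and Itgam were higher, and Adgre1, Lyz2 and Mertk overlapped. Markers of T and NK cells, B cells and mast cells summed to at most 1.59 FPKM, all 3 eosinophil markers were at 0, and mesothelial and fibroblast markers summed to 6.25 to 16.1 FPKM. Of the 5 neutrophil markers, S100a9, Ly6g and Elane were at 0 in all libraries and Mpo reached at most 0.0207 FPKM. The fifth, S100a8, had 13.5 and 30.6 FPKM for Control, 110 and 56.5 for Model and 64.0 and 50.3 for MUS. Of the neutrophil markers, S100a8 alone thus moved with the treatment, and its part in the results was not tested. In bulk RNA, fewer cells of a type and less RNA per cell cannot be told apart.

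Most members were expressed at a similar, moderate level. Of the 78 members, 75 had a mean of at least 1 FPKM and were tested among 9794 genes. Their mean ran from 1.09 to 55.4 FPKM with a median of 5.18, against 6.32 for all tested protein coding genes, and 73 of them lay under 20 FPKM. Member genes were short, with a median gene length of 2172 bases against 4339. Members lay on 17 chromosomes, with 11 on chromosome 11.

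The highest mean levels belonged to Mrpl52 (55.4 FPKM), Mrpl27 (34.2 FPKM) and Mrpl43 (19.9 FPKM), all of the large subunit. Mrpl43 had 19.5 and 19.96 FPKM for Control, 28.2 and 19.3 for Model and 16.1 and 16.2 for MUS, and 33.4% of its exon bases also belong to Twnk. The members left untested were Mrps35 (mean 0.837 FPKM), Mrps25 (mean 0.557 FPKM) and Mrpl53, which was listed at 0 in all 6 libraries. Of their exon bases, 69.8% in Mrps25 and 88.0% in Mrpl53 are shared with other genes, and how fragments on shared bases were counted is not given in the sources used here. Among all members, 33 shared exon bases with another gene and 45 shared none.

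The members' values differed most between the 2 Model libraries. Model 1 was above Model 2 in 71 of 75 members, by a median of 0.46 on log2(FPKM + 1), whereas 51.8% of all genes tested were higher in Model 1. Control 1 was above Control 2 in 50 members, with a median difference of 0.13, and MUS 1 was above MUS 2 in 33, with a median difference of -0.02. The FPKM of all members summed to 467.8 and 442.9 for Control, 730.1 and 453.4 for Model and 464.7 and 486.8 for MUS. The first Model library thus stood alone, and the other 5 lay close together. Model 1 also had the most genes above 0, 24906 against 17406 to 19200 in the other libraries. Over all genes tested, its deviation from the gene's mean fell with gene length, at a slope of -0.0598 per doubling of length. The other libraries had slopes of -0.0109 to 0.0420. Whether these traits of the library bear on the members was not tested.

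**Figure D1:**
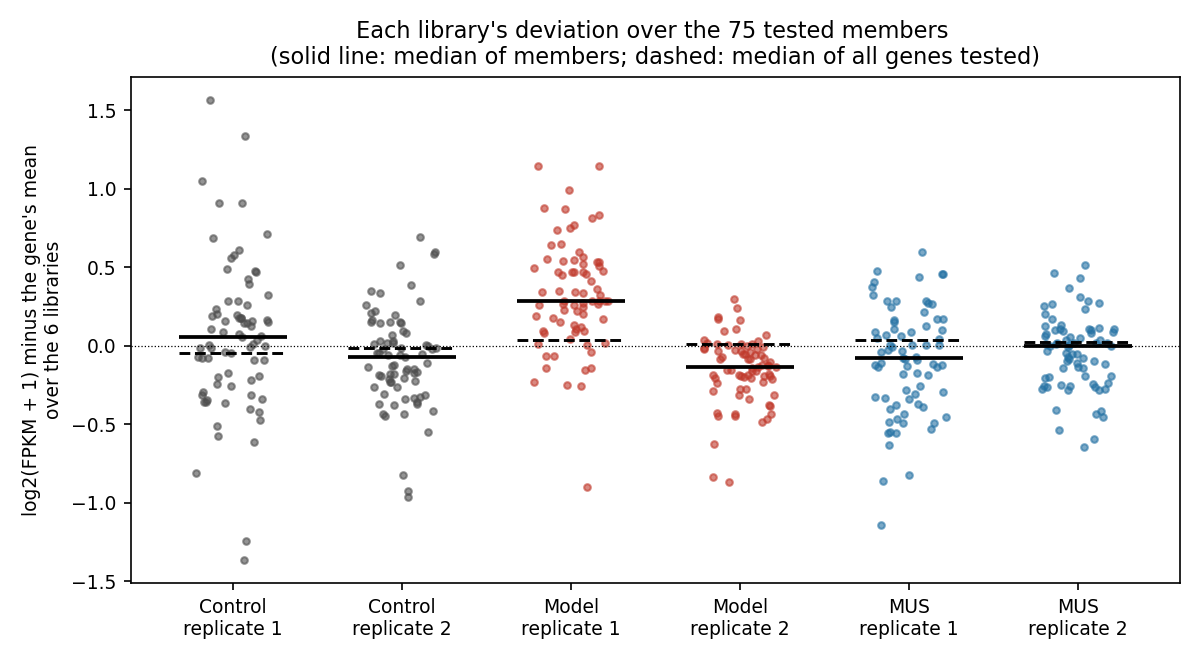
Deviation of each library from the mean of the 6, on log2(FPKM + 1), for the 75 tested members (points). The solid line is the members' median and the dashed line that of all 9794 genes tested; 65 of 75 members were above their own mean in Model 1 (median 0.28), and 15 of 75 in Model 2 (median -0.13).

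As a share of all fragments on genes, the members took 0.148 and 0.131% for Control, 0.140 and 0.09998% for Model and 0.102 and 0.108% for MUS. On this scale both Control libraries were above Model 2 and both MUS libraries, and Model 1 lay within the Control range. The deposited FPKM follow another scale than the fragment total. Divided by that total, the library size to which FPKM refer was 1.45 and 1.34 in Control and 0.909 to 0.998 in the other libraries. After median-of-ratios scaling, the FPKM of the 6 libraries needed factors of only 0.960 to 1.03, so they were used as deposited. Scaling to the fragment total shifted the median of all genes to -0.40 in Model vs. Control and -0.39 in MUS vs. Control (log2), and the changes below are relative to the deposited scale.

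Genes on the mitochondrial genome, whose mRNAs the mitoribosome translates, took 1.51 and 1.39% of fragments for Control, 0.352 and 0.497% for Model and 0.206 and 0.314% for MUS. Control was thus above the other groups in each library, by more than any of these shares differed within a group. The members' own share of fragments differed far less between the groups.

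In Model vs. Control, Mrpl27 and Mrpl30 rose, Mrpl42 fell, and 72 of the 75 tested members passed no call. A gene counted as differentially expressed (DEG) when limma gave an adjusted p up to 0.05 together with a log2 fold change beyond 1 in either direction. The 3 DEGs are 4.0% of the members tested, against 15.1% of all genes (9.5% higher, 5.56% lower). The members' median log2 fold change was 0.07, against 0.04 over all genes, with 46 members higher and 29 lower. Of the members, 56 (74.7%) lay within 0.5 of 0 on the log2 scale, against 52.5% of all genes. At an unadjusted p under 0.05 there were 10 members (13.3%), against 33.6%. Both Model libraries lay above both Control libraries in 21 members (28%, against 32.6% of all genes) and below them in 9 (12%, against 28.5%), which is 40% of members without overlap, against 61.1%. The exact permutation p of 2 against 2 libraries cannot go below 0.333, so single genes were judged only in the fit across genes.

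The sign of the median changed with the libraries used. In replicate 1, which the labels give as batch 1, 53 of 75 members were higher in Model (median 0.21), and in replicate 2 (batch 2) 31 were (median -0.05). The direction was the same in both batches for 27 higher and 18 lower members. Without Model 1 the median turned to -0.14, with 49 of 75 members lower, and without Model 2 it was 0.30, with 54 higher. Without Control 2 it was -0.00333, with 38 members lower.

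**Figure D2:**
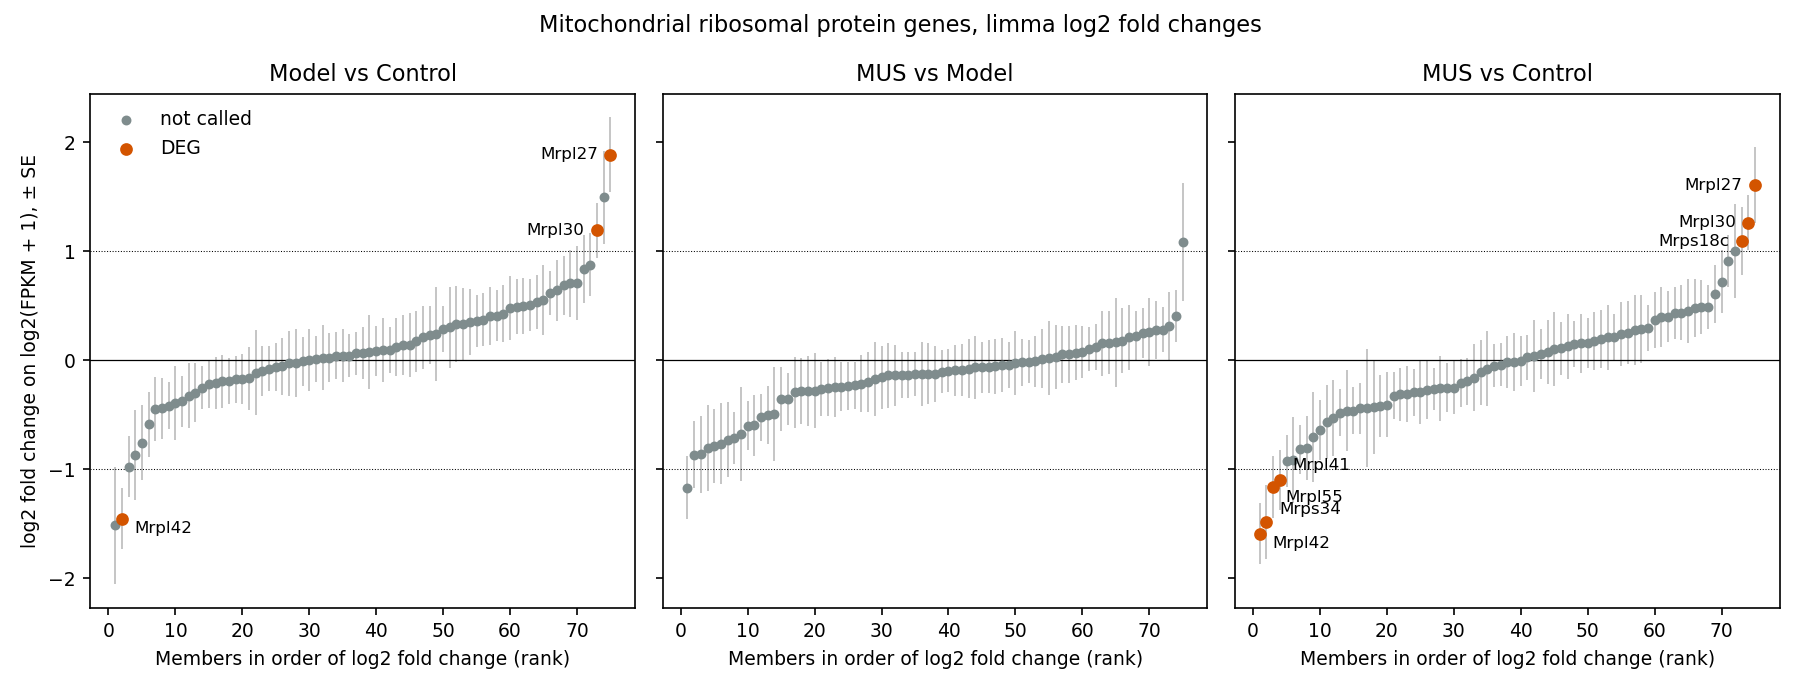
Limma log2 fold changes (± SE) of the 75 tested members, ordered from lowest to highest in each comparison, with DEGs in orange and dotted lines at a log2 fold change of 1 in either direction. There were 3 DEGs in Model vs. Control, 0 in MUS vs. Model and 7 in MUS vs. Control, and most members lay near 0.

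Mrpl27, a large-subunit protein with a bacterial counterpart (bL27) near the peptidyl transferase centre, showed the largest increase. Its gene (ENSMUSG00000024414, chr11:94653767-94660089 on GRCm38) had 10.6 and 14.3 FPKM for Control, 65.2 and 35.8 for Model and 40.0 and 39.4 for MUS. All 4 treated libraries lay above both Control libraries. Mrpl27 rose by 1.89 ± 0.35 (log2, SE) in Model vs. Control (limma adjusted p = 0.0139), a 4.05-fold ratio of the mean FPKM. The call was lost without Control 1 (adjusted p = 0.0586) and without Model 1 (adjusted p = 0.0518). Of its exon bases 7.61% are shared with Eme1, which reached at most 0.359 FPKM, and 26.9% of its 50-base stretches recur in transcripts of other genes.

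Mrpl30, the counterpart of bacterial uL30, had 5.52 and 5.45 FPKM for Control, 16.8 and 11.3 for Model and 13.8 and 15.3 for MUS. The Control libraries were alike and all treated libraries were at least 2 times as high. Mrpl30 (chr1:37890477-37898535) rose by 1.19 ± 0.26 in Model vs. Control (limma adjusted p = 0.023). It shares no exon base with another gene. Mrpl30 was called in Model vs. Control in 12 of 19 settings, counting the fit as reported. Its call was lost without Control 1 (adjusted p = 0.0855), without Model 1 (0.0789), without either MUS library (0.0675 and 0.0668), and on the fragment-total scale (log2 fold change 0.71, adjusted p = 0.0658).

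The start of Mrpl30 lies 65 bases from that of Mitd1, a gene of the abscission machinery on the opposite strand. Mitd1 had 1.44 and 1.36 FPKM for Control, 10.5 and 10.6 for Model and 11.9 and 10.4 for MUS. It rose by 2.27 in Model vs. Control (limma adjusted p = 0.00157). Both genes of this head-to-head pair were thus higher in the treated libraries, Mitd1 by the larger log2 fold change. Mitd1 was singled out after its values were seen.

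Mrpl42, a mitochondria-specific protein of the large subunit, moved in the other direction. Its gene (chr10:95480805-95501940) had 6.58 and 3.85 FPKM for Control, 1.52 and 0.947 for Model and 1.04 and 0.986 for MUS. Every treated library lay below both Control libraries. Mrpl42 fell by 1.45 ± 0.28 on the log2 scale in Model vs. Control (limma adjusted p = 0.0162), a 4.23-fold ratio of mean FPKM. Since low values are compressed by the added 1, the log2 fold change understates such a gene. The call was lost without Control 1 (adjusted p = 0.0688) and without Model 2 (adjusted p = 0.0584).

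**Figure D3:**
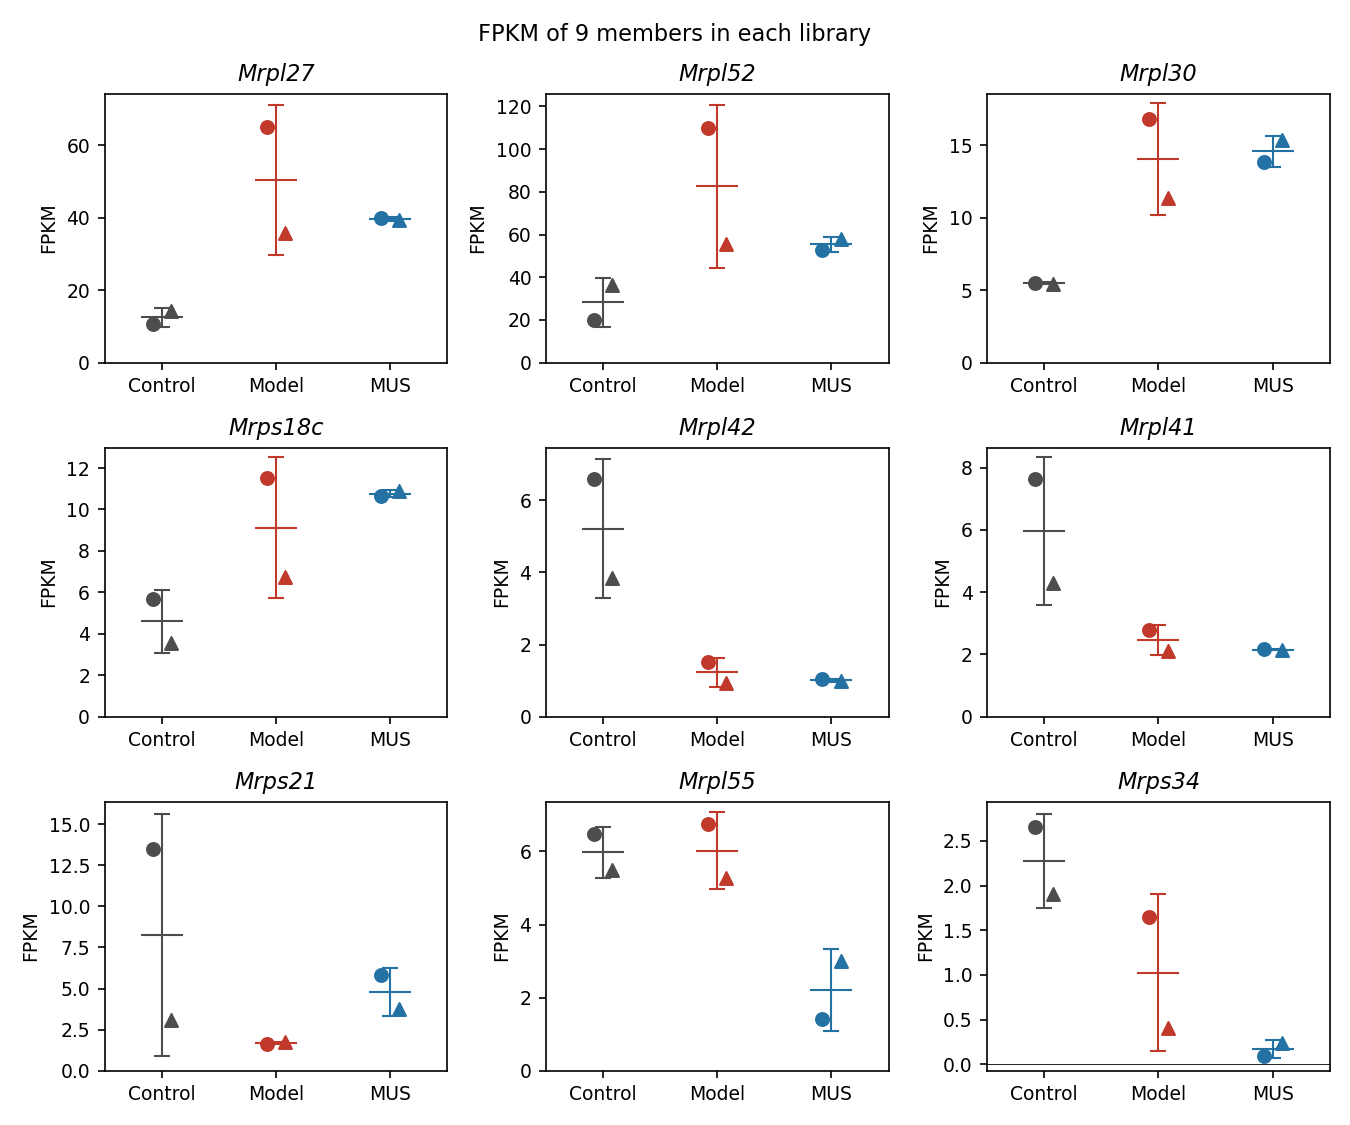
FPKM of 9 members in each library, with replicate 1 as circles, replicate 2 as triangles, and bars for the mean ± SD of 2 libraries. Mrpl27 and Mrpl30 were higher and Mrpl42 lower in all treated libraries, Mrpl52 was highest in Model 1 at 110 FPKM, and Mrpl55 and Mrps34 were lowest in MUS.

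The next members in size missed the threshold. Mrpl52, a mitochondria-specific large-subunit protein, had 20.1 and 36.4 FPKM for Control, 110 and 55.7 for Model and 52.8 and 57.9 for MUS. Its treated libraries lay above both Control libraries, with a log2 fold change of 1.496 ± 0.43 in Model vs. Control (limma adjusted p = 0.0545). Mrps18c, a small-subunit protein related to bacterial bS18, had 5.69 and 3.53 FPKM for Control, 11.5 and 6.72 for Model and 10.6 and 10.9 for MUS, a log2 fold change of 0.84 ± 0.31 (adjusted p = 0.111). Mrps6, the counterpart of bacterial bS6, had 2.48 and 2.91, 7.95 and 4.13, and 5.01 and 5.14 FPKM in the same order, a log2 fold change of 0.88 ± 0.29 (adjusted p = 0.081). All 3 genes had their Control libraries below every other library.

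At the lower end, Mrps21, the counterpart of bacterial bS21, had 13.5 and 3.08 FPKM for Control, 1.63 and 1.75 for Model and 5.82 and 3.75 for MUS. Its fold change in Model vs. Control was the lowest of all members at -1.52 ± 0.54, with a limma adjusted p of 0.0994. With the replicate as a block it passed the threshold (adjusted p = 0.0437), and Control 1 alone was far above the other libraries. Mrpl41, a mitochondria-specific large-subunit protein, had 7.63 and 4.28 FPKM for Control, 2.79 and 2.11 for Model and 2.16 and 2.15 for MUS, a log2 fold change of -0.98 ± 0.28 (adjusted p = 0.054). Mrpl34, the counterpart of bacterial bL34, had 14.4 and 8.06, 8.29 and 3.51, and 5.34 and 7.30 FPKM, so Model and Control overlapped (-0.87, adjusted p = 0.186).

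By role, the small-subunit proteins with bacterial counterparts had the highest median. The median log2 fold change of these 16 members was 0.29 in Model vs. Control, with 12 higher and 4 lower and 0 DEGs, and 4 at an unadjusted p under 0.05. The 30 large-subunit members with bacterial counterparts had a median of 0.11, with 20 higher, and held the 2 rising DEGs. The mitochondria-specific members had medians of 0.01 in the large subunit (20 tested, with Mrpl42 as 1 DEG) and -0.04 in the small subunit (8 tested, 0 DEGs and 0 at an unadjusted p under 0.05). No test between the roles was made, and in batch 2 the medians of the 4 roles were -0.05, -0.03, 0.01 and -0.21 for large shared, large specific, small shared and small specific.

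A few members sit elsewhere than their name says. Mrps30 and Mrps18a belong to the large subunit, and Mrps36 is a subunit of the oxoglutarate dehydrogenase complex rather than of the ribosome. Mrps30 had 2.08 and 1.797 FPKM for Control, 3.41 and 2.22 for Model and 3.31 and 2.67 for MUS (log2 fold change 0.36 in Model vs. Control, adjusted p = 0.322). Mrps18a (-0.01) and Mrps36 (0.02) had log2 fold changes near 0, and their Model and Control libraries overlapped.

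Muscone, added after LPS, gave 0 DEGs among the 75 members in MUS vs. Model by limma, as among all 9794 genes (0%). The members' smallest adjusted p was 0.380. Settings that used both libraries of each compared group gave 0 to 7 DEGs over all genes. The study itself, with DESeq2, reported DEGs in this comparison, so the 0 belongs to the fit used here. The members' median log2 fold change was -0.12, against 0.01 over all genes, with 53 members lower and 22 higher. At an unadjusted p under 0.05 there were 6 members (8.0%, against 8.42% of all genes), all of them lower in MUS, and voom on the recovered fragments also gave 0 DEGs and 6 such members. In 17 members (22.7%, against 21% of all genes) the MUS libraries were both under the Model libraries, and in 5 (6.67%, against 21.2%) both above, which is 29.3% of members without overlap, against 42.1%.

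This lean again rested on Model 1. In batch 1, MUS exceeded Model in 10 of 75 members (median -0.34), and in batch 2 it did so in 49 (median 0.10). Without Model 1 the median was 0.11, with 46 of 75 higher, and without Model 2 it was -0.32, with 64 lower. MUS vs. Model and Model vs. Control share the Model libraries, so a high Model 1 enters both with opposite sign.

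**Figure D4:**
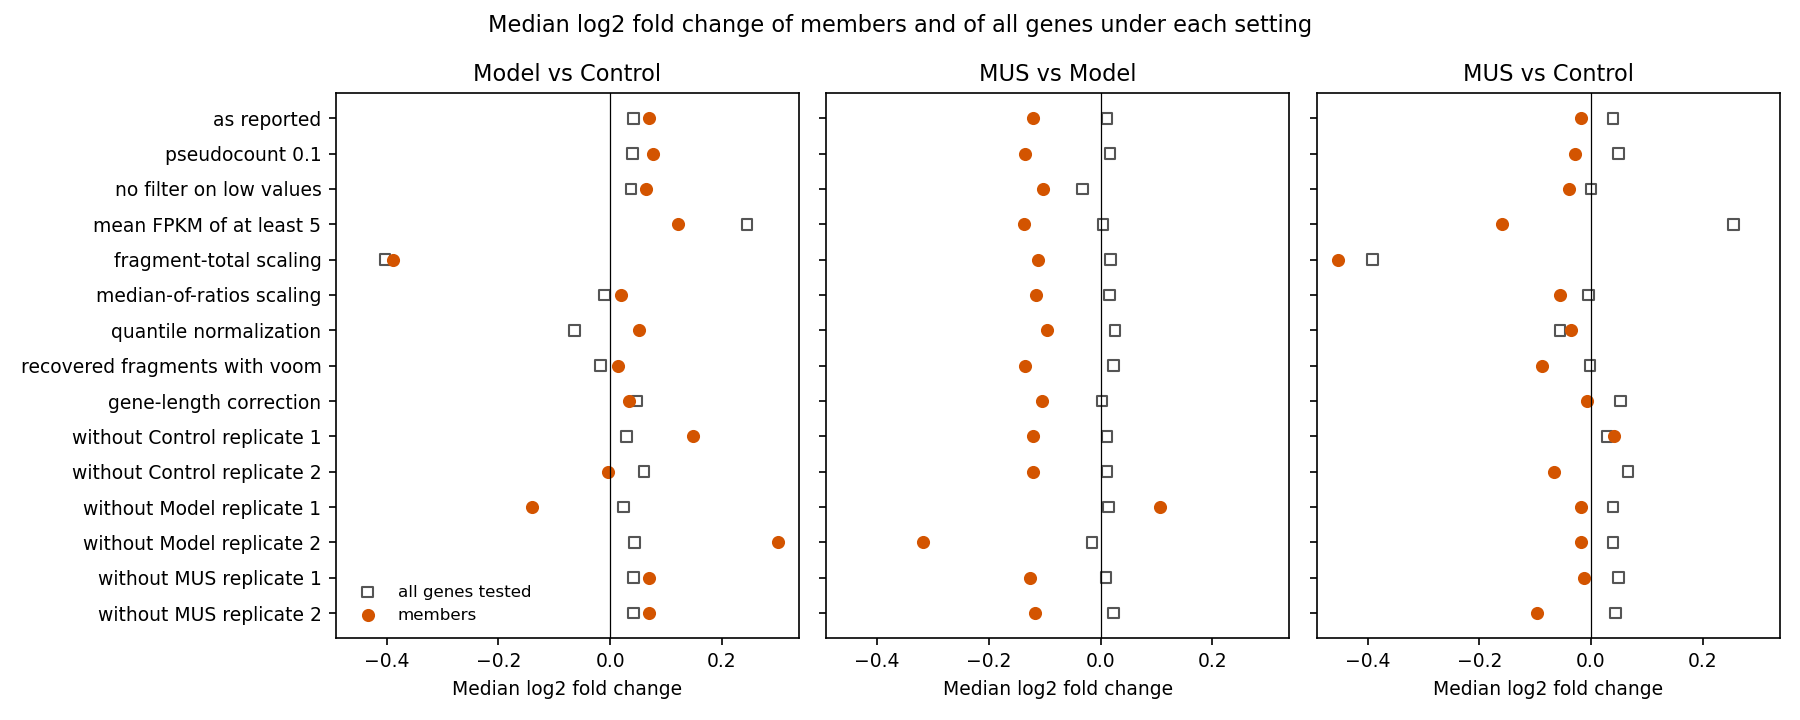
Median log2 fold change of the members (filled) and of all genes tested (open squares) in each comparison, as reported and under other settings. The members' median in MUS vs. Model lay between -0.32 and 0.11, and crossed 0 only without Model replicate 1; the fragment-total scaling moved members and all genes together in the comparisons with Control.

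The lowest log2 fold change in MUS vs. Model was that of Mrpl55, the counterpart of bacterial bL31 in the large subunit. Mrpl55 (chr11:59202486-59206134) had 6.47 and 5.49 FPKM for Control, 6.76 and 5.28 for Model and 1.42 and 2.997 for MUS. Control and Model overlapped, and both MUS libraries lay below the other 4. The log2 fold change was -1.17 ± 0.29 (limma adjusted p = 0.38). The MUS values rest on 22 and 50 fragments.

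Mrpl16 (counterpart of bacterial uL16), Mrps24 (of uS3) and Mrps14 (of uS14) followed with log2 fold changes of -0.87, -0.86 and -0.79. Mrpl16 had 23.1 and 13.7 FPKM in Model and 8.31 and 10.4 in MUS. Mrps24 had 26.4 and 14.04 in Model and 9.93 and 10.4 in MUS, and Mrps14 had 20.2 and 9.75 against 7.70 and 7.80. The groups did not overlap in these genes, and Model 1 was by far the higher Model library in each. Mrpl36, the counterpart of bL36, had 26.2 and 12.5 FPKM in Model and 7.98 and 12.5 in MUS (-0.80, adjusted p = 0.666).

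At the upper end in MUS vs. Model stood Mrps21, with a log2 fold change of 1.08 ± 0.54 (limma adjusted p = 0.67), whose MUS values lay between those of Model and Control 1. Mrpl33 (0.40), Mrps22 (0.32), Mrpl19 (0.28) and Mrpl48 (0.28) came next, with limma adjusted p-values of 0.724, 0.845, 0.768 and 0.838. Mrpl33, Mrpl19 and Mrpl48 did not overlap between the groups. Mrpl27, Mrpl30 and Mrpl42, the DEGs of Model vs. Control, had log2 fold changes of -0.28, 0.07 and -0.14, and their MUS and Model libraries overlapped. By role, the medians were -0.10 in the large and -0.15 in the small subunit for members with bacterial counterparts, and -0.11 and -0.07 for the mitochondria-specific members.

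MUS vs. Control gave 7 DEGs among the members. Mrpl27, Mrpl30 and Mrps18c rose, and Mrpl42, Mrps34, Mrpl55 and Mrpl41 fell. They are 9.33% of the members tested, against 20.2% of all genes (11.3% higher, 8.91% lower). The median log2 fold change was -0.02, against 0.04 over all genes, with 35 members higher and 40 lower. At an unadjusted p under 0.05 there were 13 members (17.3%, against 39.7%). Both MUS libraries lay above both Control libraries in 21 members (28%, against 39.6%) and below them in 26 (34.7%, against 33.8%), which is 62.7% without overlap, against 73.3%. Without Control 1 the median was 0.04. By role, the medians were 0.05 in the large and -0.16 in the small subunit for members with bacterial counterparts, and -0.01 and -0.18 for the mitochondria-specific members. This comparison shares its Control libraries with Model vs. Control and its MUS libraries with MUS vs. Model.

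Mrpl27 rose by 1.61 ± 0.35 (limma adjusted p = 0.0182) and Mrpl30 by 1.26 ± 0.26 (adjusted p = 0.015) on the log2 scale in MUS vs. Control. Mrps18c rose by 1.09 ± 0.31 (adjusted p = 0.0436), and 23.2% of its exon bases are shared with Gm43511, which reached at most 0.337 FPKM. Over the 19 settings the log2 fold change ran from 1.10 to 1.81 for Mrpl27, 0.79 to 1.39 for Mrpl30 and 0.64 to 1.37 for Mrps18c. Mrpl30 and Mrps18c thus did not stay beyond 1 in every setting. Mrpl33 had 1.33 and 1.68 FPKM in Control and 4.25 and 3.24 in MUS, and passed on p (adjusted p = 0.0337) but not on size (0.92 ± 0.24). Mrpl52 had a log2 fold change of 1.00 ± 0.43 (adjusted p = 0.128).

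Among the members that fell, Mrpl42 had the largest decrease, -1.59 ± 0.28 (limma adjusted p = 0.00944), and Mrpl41 fell by 1.10 ± 0.28 on the log2 scale (adjusted p = 0.0305). Mrpl55 fell by 1.16 ± 0.29 (adjusted p = 0.0284). Mrpl57, a mitochondria-specific large-subunit protein, had 3.60 and 5.22 FPKM in Control and 1.81 and 1.83 in MUS, and passed on p (adjusted p = 0.0337) but not on size (-0.92 ± 0.24). Its libraries did not overlap between the groups. Leaving out libraries ended most calls of this comparison. Without Control 1 Mrpl42 alone passed, without MUS 2 Mrpl55 alone, and without MUS 1 0 members passed in limma, with 8 at an unadjusted p under 0.05. Without Control 2, Mrpl55 (adjusted p = 0.0532) and Mrps18c (adjusted p = 0.144) did not pass.

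Mrps34, a mitochondria-specific small-subunit protein, had 2.65 and 1.91 FPKM for Control, 1.65 and 0.407 for Model and 0.0962 and 0.239 for MUS. These values rest on 125 and 90, 48 and 13, and 3 and 8 fragments. Mrps34 fell by 1.48 ± 0.34 on the log2 scale in MUS vs. Control (limma adjusted p = 0.0228), and its log2 fold changes of -0.75 in Model vs. Control and -0.73 in MUS vs. Model did not pass. Of its exon bases 77.8% are shared with Mapk8ip3 and Nme3, and Nme3 was listed at 0 in every library.

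The genes closest to Mrpl41 and Mrpl52 were singled out after their values were seen. Pnpla7, a lysophospholipase whose gene lies 934 bases from Mrpl41, had 16.1 and 6.22 FPKM for Control, 1.37 and 1.70 for Model and 2.07 and 2.35 for MUS, and fell by 2.13 on the log2 scale in Model vs. Control (limma adjusted p = 0.0132; 0.0802 without Model 1 and 0.0501 without Model 2). Mmp14, a membrane metalloproteinase whose gene lies 1855 bases from Mrpl52 on the same strand, had 24.8 and 87.7 FPKM for Control, 108 and 155 for Model and 143 and 168 for MUS (1.45, adjusted p = 0.126). Neighbours of other members did not always move with them. Cacybp, beside Mrps14, had a log2 fold change of 1.73 in Model vs. Control, and the ratio of mean FPKM in Model over Control was 1.81 for Mrps14. In MUS vs. Control Cacybp was still higher (1.58), whereas the ratio of mean FPKM in MUS over Control was 0.935 for Mrps14. Psma2, 74 bases from Mrpl32, had 16.9 and 23.8 FPKM for Control and 66.0 and 35.8 for Model. The ratio of mean FPKM in Model over Control was 0.946 for Mrpl32. Tmem8, 245 bases from Mrpl28, had a log2 fold change of -0.92 in Model vs. Control, and the ratio for Mrpl28 was 1.33. Mrpl41 and Mrpl52 share no exon base with another gene. The counting was not stated to use strand.

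The other genes of mitochondrial translation also gave few calls. Of 60 genes measured in 4 lists, 48 were tested. In Model vs. Control 1 of the 48 was a DEG (against 15.1% of all genes) and 7 had an unadjusted p under 0.05 (against 33.6%). In MUS vs. Model there were 0 by limma (against 0%) and 5 (against 8.42%). In MUS vs. Control there were 1 (against 20.2%) and 10 (against 39.7%). The 5 mitoribosome subunits not named Mrpl or Mrps, among them Dap3 and Aurkaip1, had 0 DEGs by limma in each comparison, with 0, 1 and 1 at an unadjusted p under 0.05 in Model vs. Control, MUS vs. Model and MUS vs. Control. Aurkaip1 had 27.2 and 17.7 FPKM in Model and 10.1 and 13.8 in MUS, a log2 fold change of -0.84 (limma adjusted p = 0.497).

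Of the mitochondrial translation factors, 12 of 13 measured were tested and in 9 of the 12 Model was below Control (median log2 fold change -0.33), against 47.5% of all genes lower and a median of 0.04. They held 0 DEGs by limma (against 15.1%) and 1 gene at an unadjusted p under 0.05 (against 33.6%). Mtrf1, a release factor that ends translation, had 1.67 and 2.03 FPKM for Control, 0.705 and 0.535 for Model and 0.768 and 0.765 for MUS, and passed on p (limma adjusted p = 0.0494) but not on size (-0.81). Gfm2, which helps recycle ribosomes, had the highest log2 fold change of these factors in MUS vs. Model at 0.35 (adjusted p = 0.73).

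Of the 25 assembly and rRNA factors, 22 were tested and 1 was a DEG in Model vs. Control. Rbfa, which helps mature the small-subunit rRNA, had 9.15 and 5.43 FPKM for Control, 2.21 and 3.42 for Model and 3.12 and 3.13 for MUS, and fell by 1.10 on the log2 scale (limma adjusted p = 0.0405). Leaving out any library but Control 2 ended this call, with adjusted p-values of 0.0538 (without Model 2) to 0.206 (without Control 1). Noa1, a GTPase of mitoribosome assembly, had a log2 fold change of -0.75 (adjusted p = 0.061), and Mterf3 (0.76, adjusted p = 0.0703), Rcc1l (0.63, adjusted p = 0.0976) and Rpusd4 (0.56, adjusted p = 0.127) were the highest. Rcc1l had 2.31 and 3.15 FPKM for Control, 4.91 and 4.56 for Model and 1.56 and 2.12 for MUS, and reached -1.02 in MUS vs. Model (log2 fold change, adjusted p = 0.344). Mrm1, a methyltransferase of the large rRNA, had the lowest log2 fold change after Rbfa in MUS vs. Control (-0.84, adjusted p = 0.0529).

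Of 17 mitochondrial aminoacyl-tRNA synthetases, which charge tRNAs, 9 were tested. Lars2, the leucyl-tRNA synthetase, had 81.3 and 45.3 FPKM for Control, 34.4 and 139 for Model and 5.05 and 13.9 for MUS. Its mean of 53.1 FPKM stood far apart from the list, where Iars2 came next at 3.82 FPKM. The reason for this level was not tested. Lars2 fell by 2.70 on the log2 scale in MUS vs. Control (limma adjusted p = 0.0347). In MUS vs. Model its log2 fold change was -2.89 (adjusted p = 0.38). The Model libraries enclosed both Control libraries. The call in MUS vs. Control was lost without Control 1 (adjusted p = 0.149), without MUS 1 (0.239) and without MUS 2 (0.0701). Iars2 (0.35) and Wars2 (0.46) were the highest in MUS vs. Model, with adjusted p-values of 0.744 and 0.668.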

How the data were processed

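RNA-seq libraries of 6 samples in 3 groups were analysed. The authors deposited 1 table of FPKM per gene and library. Their methods name RSEM, whereas the submitters' processing notes name HISAT2, featureCounts 1.5.0-p3 and GRCm39; gene positions equal those of GENCODE M21 on GRCm38 for 98.3% of 54495 shared genes, and for 73 of 78 members. FPKM times gene length was a whole multiple of 1 step per library (100% of values within 0.1), which gave back the fragments per gene. One fragment of a 1-kb gene equals 0.0437 to 0.0709 FPKM.

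The 9794 genes whose FPKM averaged 1 or more were fitted in limma 3.58.1 (R 4.3.3; lmFit, contrasts.fit, eBayes with trend, two-sided) on log2(FPKM + 1), with all 6 libraries in 1 model, and p-values were adjusted by Benjamini-Hochberg over all genes tested. The fit left 3 residual degrees of freedom, and limma added 4.04. It was tested on simulated data. Exon overlap came from GENCODE M21, and promoters from RefSeq.

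The members and gene lists were chosen with earlier results of these data known. Named are the DEGs among the members, filled to 5 per direction and comparison by size, the 3 highest and 3 lowest in level, members placed apart from their name, and pathway genes filled to 3; neighbours were chosen after their values were seen. Of the 61 pathway symbols, 60 were in the table. The labels give the replicate number as the batch; replicate differences correlated at 0.12 (Control and Model), -0.09 (Control and MUS) and 0.14 (Model and MUS). Alternatives covered pseudocount, filter, scaling, voom, no trend, only the compared groups in the fit, gene length, the replicate block and leaving out each library.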

Additional observations from a re-analysis of the deposited data

How the results depend on the processing

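Without a filter on low values, 0 members were DEGs in Model vs. Control and 0 in MUS vs. Control by limma (8 and 13 at an unadjusted p under 0.05), while DEGs among all genes dropped to 260 and 456. With a mean FPKM of at least 5, 39 members were tested and 3 were DEGs in MUS vs. Control. With only the compared groups in the fit, 2 members and 797 of all genes were DEGs in Model vs. Control. On the fragment-total scale, 6 members were DEGs in Model vs. Control (1 up, 5 down; median -0.388376) and 11 in MUS vs. Control (1 up, 10 down; median -0.453137), with all genes shifted to -0.40 and -0.39. With the replicate block, 4, 0 and 7 members were DEGs in Model vs. Control, MUS vs. Model and MUS vs. Control. The first added Mrps21, and the other counts of member DEGs stayed as reported. Among all genes the block gave 1582, 4 and 2125 DEGs in the same order, against 1475, 0 and 1980 as reported. The block with a gene-length correction gave 5 in Model vs. Control, adding Mrpl41. With the gene-length correction alone, the members' median in Model vs. Control was 0.03, against 0.05 over all genes. Restricted to members that share no exon base, an alternative chosen after seeing the data, MUS vs. Control had 4 DEGs.

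Leaving out 1 library at a time gave 0 (without Control 1) to 6 (without Control 2 or without Model 2) DEGs in Model vs. Control, with 1 without Model 1, and 0 (without MUS 1) to 7 in MUS vs. Control, with 1 without Control 1 and 1 without MUS 2. Where this left 1 library in a group, it was assumed to vary like the other groups. Over these fits the members' medians ranged from -0.14 to 0.30, from -0.32 to 0.11 and from -0.10 to 0.04 in Model vs. Control, MUS vs. Model and MUS vs. Control. The cause of these shifts was not tested. In MUS vs. Model 0 members were DEGs by limma under each of the settings tried, with 1 to 17 at an unadjusted p under 0.05. Over the named genes, 1694 values under alternatives kept direction and side of the threshold, 43 newly passed and 58 no longer passed. In 83 further values, of genes not called as reported, the sign of the log2 fold change reversed.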
